A study of Mus musculus with 6 samples.

Results

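The genes described here are A2m, Hopx, Crym, Adam23, Scn7a, Mme, Chl1 and Cntn1, 8 of the 27998 genes listed for 6 single-cell libraries of cultured mouse Müller glia. They were picked by symbol because their levels were lowest when a let-7 antagomiR and a miR-25 mimic were given together, so that difference is a description and not a test. All 8 passed the level filter, at least 20 CPM (UMI counts scaled to 1 common total per library) in at least 1 library, as did 7105 genes in all. Among those 7105 genes, ordered from the lowest ratio of double combination to control, the 8 stood at ranks 1, 2, 3, 4, 7, 8, 9 and 12. The last one inside was Cntn1, with a log2 ratio of -1.40, and the first gene after it was Pcdh9, at rank 13 with -1.37. The genes at ranks 5, 6, 10 and 11, which are mt-Nd4l, Mt3, Bglap2 and Fxyd1, are not members.

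Müller glia span the retina from its inner to its outer edge, take up glutamate and potassium, and support neurons. In fish they can return to a progenitor state and replace lost neurons, and in mammals this is limited. The let-7 miRNAs are abundant in differentiated cells and scarce in many progenitors, while miR-25 belongs to a miRNA cluster expressed in proliferating progenitors. A miRNA lowers its target mRNAs by pairing through its seed with sites that lie mostly in 3′ UTRs; a mimic adds the miRNA, and an antagomiR blocks it.

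Retinas were dissociated with papain and grown in medium with serum and EGF, then transfected with Lipofectamine and 500 nM of each RNA. There was 1 library for each treatment. The double combination had the miR-25 mimic added to the let-7 antagomiR, and these RNAs were also given singly. A further library is labelled as miR-124 mimic alone (the miR-124-labelled library) and another as all 3 RNAs together (the triple-labelled library). Controls received a control mimic and a control antagomiR. Age, strain and sex of the mice, and whether retinas were pooled, are not stated in the labels. With 1 library per treatment no test of a treatment was possible: the 95% intervals below are exact and cover counting error only, and no difference has a replicate check.

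Depth was 11804176 UMIs (RNA molecules counted once each) for the readable part of the double combination, and 15059804 to 23124374 UMIs for the other 5 libraries. The double combination's matrix was incomplete, with 5094879 of 8637523 entries and 3014 of 5141 barcodes used. Levels are UMIs summed over Müller-like cells and scaled to CPM. Müller-like cells numbered 1390 in the double combination (51.1% of kept cells), 1620 with let-7 antagomiR (52.9%), 3121 with the miR-25 mimic (60.5%), 1303 in the miR-124-labelled library (37.4%), 2311 in the triple-labelled library (56.7%) and 1351 in the control (29.9%). Their median depth was 3896.5 UMIs per cell in the double combination and 3906 in the control, and their median mitochondrial share was 6.49% in the double combination and 7.34% in the control. The 22 Müller glia markers were all detected in each library, with summed levels of 14930 CPM in the double combination, 17550, 19180, 22940 and 25320 CPM with let-7 antagomiR, with the miR-25 mimic and in the miR-124- and triple-labelled libraries, and 17190 CPM in the control.

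Genes with a seed match to the added RNAs served as a check on the labels. Genes with the miR-25 7-mer in their 3′ UTR had a median log2 ratio to control that differed from that of genes without it by -0.22 in the double combination and -0.17 with the miR-25 mimic. The difference was 0.065 in the triple-labelled library, although its label names miR-25 mimic, and 0.075 in the miR-124-labelled library. Genes with the let-7 7-mer differed by 0.02 in the double combination, 0.04 with let-7 antagomiR and 0.067 in the triple-labelled library. They differed by 0.12 in the miR-124-labelled library, although that label names no let-7 inhibitor. The let-7 values were small also where the let-7 antagomiR alone was given, so they cannot decide a label. The miR-124- and triple-labelled libraries also differed from the others in their mix of Müller-like clusters, and its part here was not tested. The miR-124- and triple-labelled libraries are therefore named by their labels throughout. The sequences below are those of the miRNAs, with the seed in capitals; the labels do not name the let-7 member or the arm of miR-25, and let-7a-5p and miR-25-3p were taken. The miR-25-3p seed is shared by 6 mature mouse miRNA names and the let-7a-5p seed by 11 (RefSeq, GRCm38.p6; chr5:138165332-138165353, minus strand, and chr13:48538239-48538260, minus strand).
miR-25-3p: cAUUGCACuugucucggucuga
let-7a-5p: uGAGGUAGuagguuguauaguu

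The 2 genes that act on extracellular proteins and peptides were A2m and Mme. A2m (ENSMUSG00000030111) encodes alpha-2-macroglobulin, a secreted inhibitor that traps proteases. It stood at 246.0 CPM in the double combination, 515.9 with let-7 antagomiR, 587.6 with the miR-25 mimic, 578.6 and 728.3 in the miR-124- and triple-labelled libraries, and 1001 in the control. The double combination was lowest and the control highest, and only the miR-124-labelled library and the miR-25 mimic had overlapping intervals. The double combination had 0.246 times the control level (interval 0.232 to 0.261), from 1397 and 5510 UMIs. Mme (ENSMUSG00000027820) encodes neprilysin, a membrane peptidase that cleaves small peptides outside the cell. Its levels were 81.52 CPM in the double combination, 219.3 with let-7 antagomiR, 145.9 with the miR-25 mimic, 77.51 and 81.36 in the miR-124- and triple-labelled libraries, and 235.8 in the control. Mme was thus not lowest in the double combination: the miR-124- and triple-labelled libraries were as low, with intervals that overlapped from each to the next.

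Adam23, Chl1 and Cntn1 encode proteins of cell contact. Adam23 (ENSMUSG00000025964) is an ADAM family protein without protease activity that binds LGI proteins. It was at 38.56 CPM in the double combination, 115.0 with let-7 antagomiR, 88.89 with the miR-25 mimic, 109.6 and 182.2 in the miR-124- and triple-labelled libraries, and 141.2 in the control. The double combination was lowest by a wide gap, with 219 UMIs against 777 in the control and a ratio of 0.273 (0.234 to 0.318). Chl1 (ENSMUSG00000030077), the close homologue of the adhesion molecule L1, was at 71.66 CPM in the double combination, 209.8 with let-7 antagomiR, 118.7 with the miR-25 mimic, 148.6 and 146.2 in the miR-124- and triple-labelled libraries, and 209.6 in the control. For Chl1 the intervals of let-7 antagomiR and the control overlapped, and the double combination had 0.342 times the control level (0.305 to 0.383). Cntn1 (ENSMUSG00000055022) encodes contactin 1, an immunoglobulin-family adhesion protein with a lipid anchor. It stood at 28.70 CPM in the double combination, 71.48 with let-7 antagomiR, 49.12 with the miR-25 mimic, 285.2 and 320.3 in the miR-124- and triple-labelled libraries, and 83.93 in the control. Here the double combination was lowest, but the 2 highest libraries were those labelled with miR-124, both above the control.

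Hopx, Crym and Scn7a have roles inside the cell or in its membrane potential. Hopx (ENSMUSG00000059325) encodes a small homeodomain protein that does not bind DNA and is found in several glial and stem cell types. Its levels were 19.90 CPM in the double combination, 46.80 with let-7 antagomiR, 44.15 with the miR-25 mimic, 49.71 and 69.89 in the miR-124- and triple-labelled libraries, and 83.75 in the control. The single RNAs did not differ beyond their intervals, and the double combination, with 113 UMIs, had 0.238 times the control level (0.192 to 0.292). Crym (ENSMUSG00000030905) encodes mu-crystallin, a cytosolic protein that binds thyroid hormone. It stood at 559.7 CPM in the double combination, 1515 with let-7 antagomiR, 1193 with the miR-25 mimic, 1791 and 2270 in the miR-124- and triple-labelled libraries, and 1955 in the control. All 6 Crym intervals were separate, and the double combination had 0.286 times the control level (0.275 to 0.298). Scn7a (ENSMUSG00000034810) encodes a channel of the voltage-gated sodium channel family that senses extracellular sodium in glia. It was at 14.44 CPM in the double combination, 45.42 with let-7 antagomiR, 28.28 with the miR-25 mimic, 29.40 and 29.59 in the miR-124- and triple-labelled libraries, and 49.96 in the control. With 82 UMIs in the double combination it rested on the fewest counts of the 8.

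**Figure D1:**
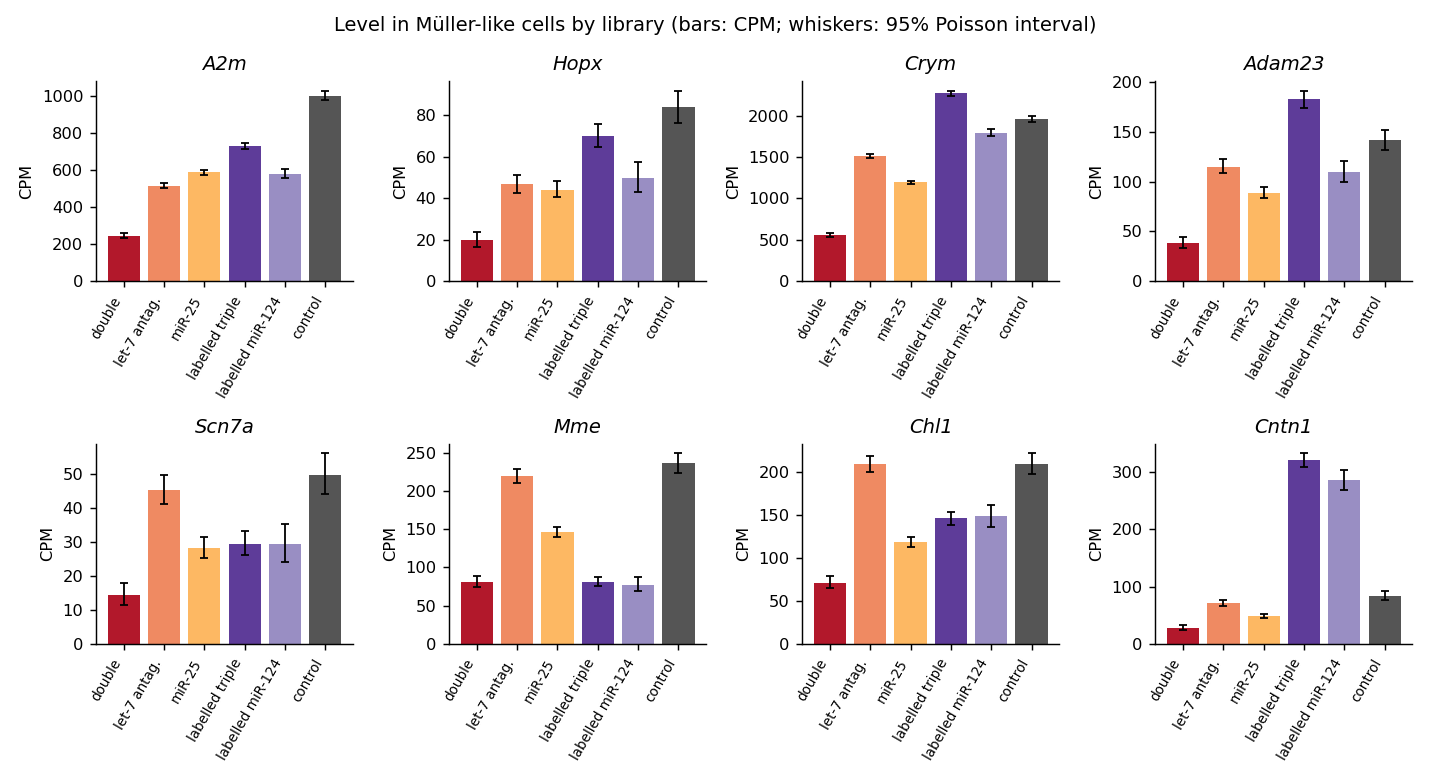
Levels of the 8 genes in Müller-like cells, in CPM, 1 bar per library with its 95% Poisson interval. The double combination has the lowest bar for 7 genes; for Mme it stands at 81.52 CPM beside 77.51 and 81.36 CPM in the miR-124- and triple-labelled libraries.

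Against the control, the log2 ratios of the double combination ran from -2.00 (A2m) to -1.40 (Cntn1), with a median of -1.62 against -0.02 over all 7105 genes. These ratios are of CPM + 5, which understates the difference of low genes such as Scn7a and Hopx. All 8 were at least 2-fold lower, as were 0.774% of all genes; the choice of the genes fixes that count, and nothing is read from it. The direction was the same over all kept cells, where all 8 were below 0. The median was then only -0.81, and the ratios ran from -1.05 to -0.26. The control had a smaller share of Müller-like cells in those sums. Among markers of other cell types in the Müller-like sums, the 11 of pericytes or smooth muscle reached 6143 CPM in the double combination and 4243 CPM in the control, with Kcnj8 and Abcc9 at 0 in both. The 10 of microglia reached 17.96 and 17.26 CPM and the 13 of fibroblasts 102.1 and 119.5 CPM in the double combination and the control. Their part in the result was not tested.

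The ratios of the 2 single RNAs were spread differently over the 8 genes. These comparisons share the control library with the one above, so their values are given side by side. With let-7 antagomiR against the control, A2m had a log2 ratio of -0.95 and Hopx one of -0.78, while Crym was at -0.37, Adam23 at -0.29, Cntn1 at -0.22, Scn7a at -0.12, Mme at -0.10 and Chl1 at 0.00. Only A2m and Hopx were at least 1.5 times lower, 2 of 8, against 0.704% of all genes. With miR-25 mimic against the control, the 8 ratios were close together, from -0.85 (Hopx) to -0.64 (Adam23). All 8 were at least 1.5 times lower with the miR-25 mimic, against 1.01% of all genes, and none was 2-fold lower, as were 0.0422% of all genes. The median was -0.25 with let-7 antagomiR and -0.72 with the miR-25 mimic, against 0.01 and 0.03 over all genes. Over all kept cells the signs turned: 2 of 8 were below 0 with let-7 antagomiR and 2 of 8 with the miR-25 mimic, where the share of Müller-like cells was 52.9% and 60.5% against 29.9% in the control. The part of this share in those values was not tested.

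**Figure D2:**
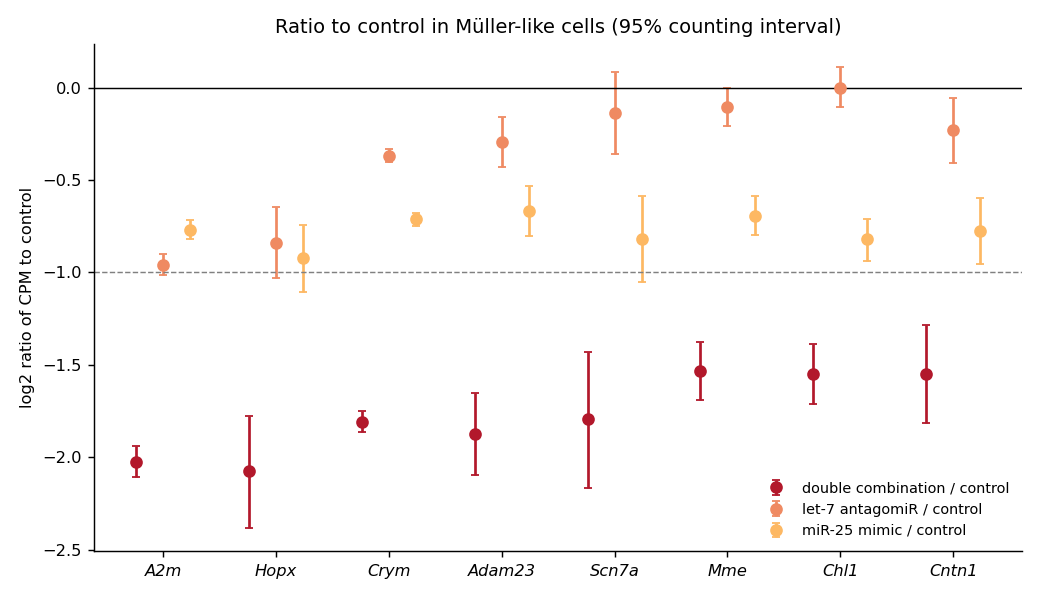
Log2 ratio of CPM to the control in Müller-like cells, with 95% counting intervals, for the double combination, let-7 antagomiR and miR-25 mimic; the dashed line marks 2-fold lower. The miR-25 points lie in a narrow band, the let-7 points are low for A2m and Hopx and near 0 for Chl1, and the double combination lies below both for every gene.

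Set against each single RNA, the double combination was lower for all 8. Against let-7 antagomiR the log2 ratios ran from -1.49 (Chl1) to -1.05 (A2m), all at least 2-fold lower, as were 0.802% of all genes. Against miR-25 mimic they ran from -1.24 (A2m) to -0.68 (Cntn1). There, A2m, Crym and Adam23 were 2-fold lower, 3 of 8 against 0.676% of all genes, and Hopx was just inside at -0.98. These comparisons share the library on which the genes were chosen. The log2 ratio of the double combination was below the sum of the 2 single ratios by 0.21 for Hopx and 0.29 for A2m, the genes lowest with let-7 antagomiR, and by 0.47 for Cntn1 to 0.82 for Adam23 in the other 6. Over all genes the same difference had a median of -0.05, and 90% of genes lay from -0.57 to 0.46. Genes chosen for a low double combination tend to fall below the sum, so no test was made.

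The libraries labelled with miR-124 divided the 8 genes. In the miR-124-labelled library, Mme was at a log2 ratio of -1.55 to the control and Cntn1 at 1.71. Mme was the only one 2-fold lower, as were 1.66% of all genes, and Cntn1 the only one 2-fold higher, as were 2.76%. The other 6 ran from -0.79 (A2m) to -0.13 (Crym). In the triple-labelled library, Mme was at -1.48 and Cntn1 at 1.87, Crym was at 0.22 and Adam23 at 0.36, and the other 4 were below 0. Against the double combination, the triple-labelled library was at least 2-fold higher for A2m, Hopx, Crym, Adam23 and Cntn1, 5 of 8, where 7.30% of all genes were. The largest of these ratios was that of Cntn1, 11.2-fold (9.53 to 13.1), and Mme had a ratio of 0.998 (interval 0.888 to 1.12). The mix of clusters differed as well, and its part in the Mme and Cntn1 values was not tested. In the main clustering, formed with the 8 genes, a cluster led by Rlbp1 held 55.5% and 75.8% of Müller-like cells in the miR-124- and triple-labelled libraries. It held at most 1.25% in each other library. With the other 3 clusters weighted as in the control, Mme was at -0.59 and -0.10 and Cntn1 at 0.65 and 0.48 in the miR-124- and triple-labelled libraries. With the same weights, the triple-labelled library against the double combination had Mme at 1.41, Cntn1 at 1.46 and Hopx at 0.85. Among those 3 clusters, that led by Bglap2 had A2m and Mme among its leading genes, so the weighting is not independent of them. In clusters led by Lcn2, Bglap2 and Npvf formed without the 8 genes, the miR-124-labelled library had Mme at -0.46, -0.99 and -0.20 to the control. Cntn1 was at 0.53, 0.62 and 0.40 there.

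Single cells were compared after thinning each Müller-like cell to 2000 UMIs, which left out 159 shallower cells of the double combination and 126 of the control. The median sum of the 8 genes was 1 UMI per cell in the double combination, 4 with let-7 antagomiR, 3 with the miR-25 mimic, 5 and 7 in the miR-124- and triple-labelled libraries, and 6 in the control. Cells with none of the 8 made up 32.2% in the double combination (29.6% to 34.9%), 10.5% with let-7 antagomiR, 8.07% with the miR-25 mimic, and 4.16% in the control (3.12% to 5.44%). At least 4 of the 8 were detected in 4.31% of cells of the double combination and 27.2% of control cells. The whole distribution of this sum thus lay lower in the double combination, and not only its upper end. Crym alone gave 52.8% of the unthinned UMIs of the 8 in the double combination and 52.0% in the control. Hopx and Scn7a were seen in only 11.8% and 10.5% of thinned control cells. The sum thus describes the abundant genes more than each of the 8, which were chosen for low levels in the double combination. Before thinning, A2m had a UMI in 37.3% of the double combination's Müller-like cells and 73.4% of the control's. In microglia-like cells, which should lack it, that share was 4.29% in the double combination and 8.13% in the control, at median depths of 3972 and 6362 UMIs.

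**Figure D3:**
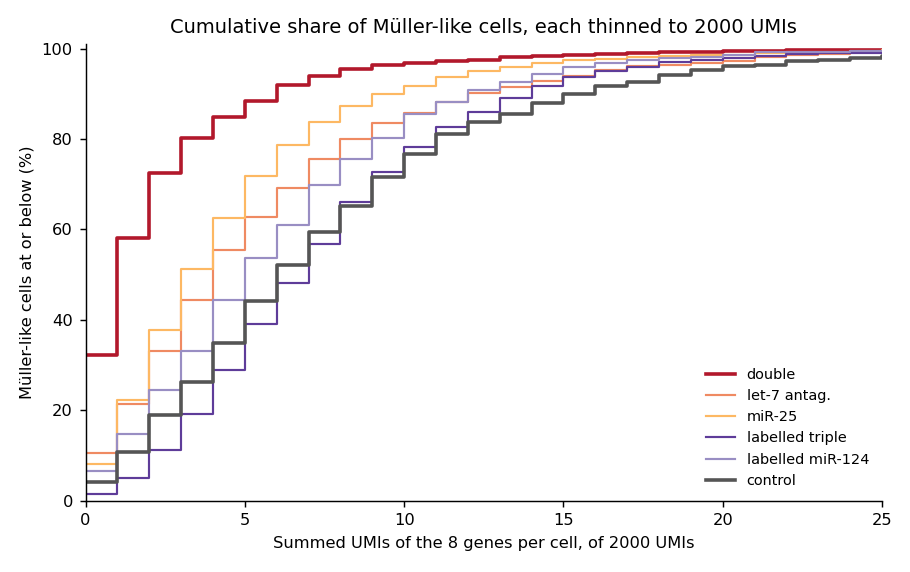
Cumulative share of Müller-like cells (%) by the summed UMIs of the 8 genes, each cell thinned to 2000 UMIs, 1 line per library. The line of the double combination starts at 32.2% of cells with no UMI and lies above all others, while that of the control starts at 4.16%.

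Müller-like cells fell into clusters, and all 8 genes were among the variable genes that formed them. The cells were therefore clustered again without the 8 genes, and the levels compared within clusters that hold enough cells of both libraries. The cluster led by Npvf made up 59.0% of Müller-like cells in the double combination and 32.3% in the control, that led by Lcn2 29.8% and 38.5%, and that led by Bglap2 10.7% and 28.7%. Within the Lcn2-led cluster (414 cells of the double combination and 521 of the control) all 8 genes were at least 2-fold lower in the double combination, with a median log2 ratio of -1.47, where 0.774% of all genes were. In the Npvf-led cluster (819 and 437 cells) the median was -1.57, and 6 of 8 were 2-fold lower, against 0.633% of all genes. In the Bglap2-led cluster (149 and 388 cells) the median was -1.07, and 4 of 8 were, against 3.34% of all genes. All 8 were below 0 in each of the 3. The genes were chosen for low levels in the double combination, so these counts are a description and nothing is read from them.

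The genes differed in where within the Müller-like cells they were found. Hopx was at 38.43 CPM in the double combination and 146.6 CPM in the control in the Lcn2-led cluster, against 11.24 and 41.32 CPM in the Npvf-led one. Mme had its lowest control level in the Lcn2-led cluster, 64.48 CPM in the double combination and 142.8 CPM in the control, while in the Bglap2-led cluster it was at 75.91 and 304.3 CPM. The log2 ratio of Mme was -1.09 in the Lcn2-led cluster and -1.94 in the Bglap2-led one. Crym had its lowest log2 ratio in the Npvf-led cluster, -2.01, with 436.1 CPM in the double combination and 1770 CPM in the control. Hopx and Cntn1 in the Bglap2-led cluster had ratio intervals that reached 1 (0.245 to 1.06 and 0.407 to 1.01). The main clustering, formed with the 8 genes, also had clusters led by Npvf, Lcn2 and Bglap2. With those 3 weighted as in the control, the median ratio of the double combination was -1.39. There, the 8 ratios ran from -1.61 to -0.98 (Cntn1).

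**Figure D4:**
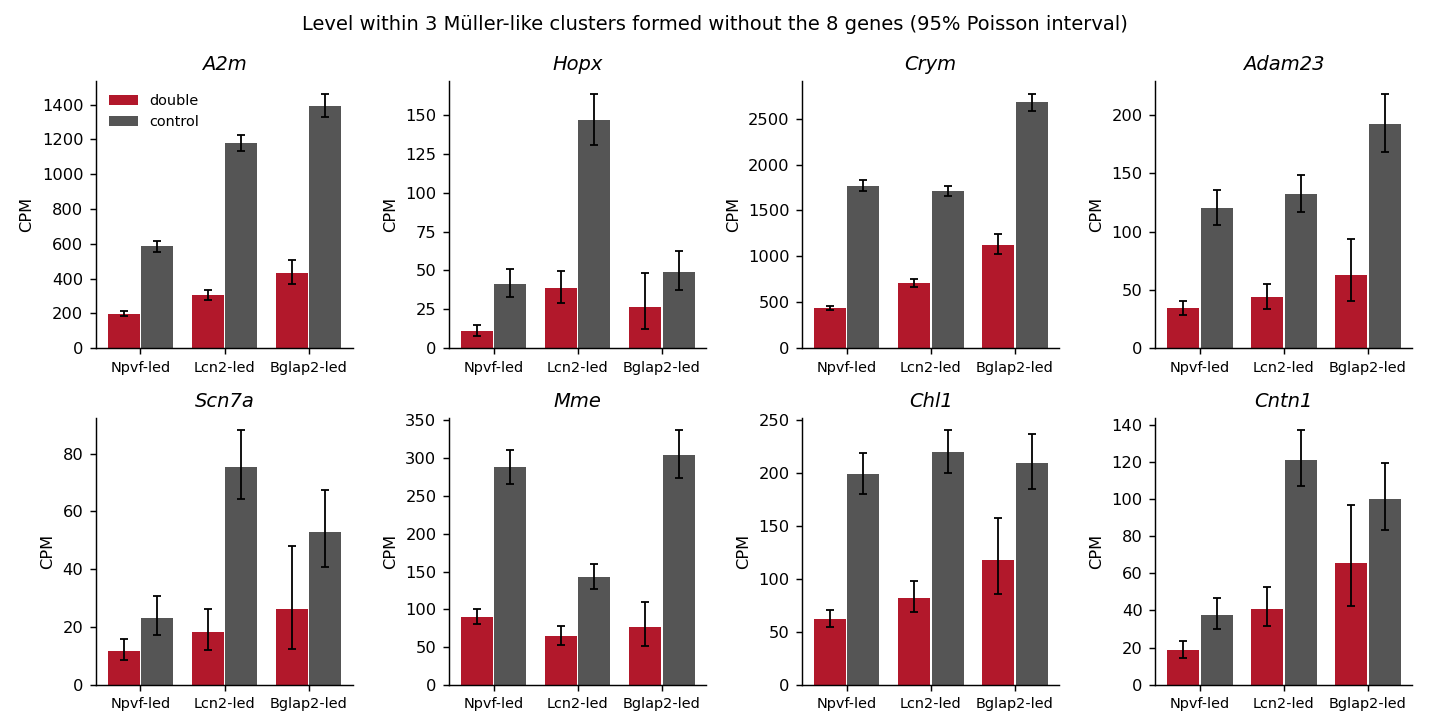
Levels (CPM, 95% Poisson intervals) in the double combination and the control within 3 Müller-like clusters formed without the 8 genes. The double combination is lower in each pair; the ratios nearest to 1 are those of Hopx, Scn7a, Chl1 and Cntn1 in the Bglap2-led cluster and of Scn7a and Cntn1 in the Npvf-led one.

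The name glial was checked against the other cells of the cultures. In control cells A2m, Crym, Adam23, Mme and Chl1 were higher in Müller-like cells than in each of the astrocyte-, fibroblast-, pericyte- and microglia-like cells. Hopx was instead higher in astrocyte-like cells, at 170.8 CPM (149.6 to 194.2) in the control, and Cntn1 was at 103.4 CPM there (87.00 to 121.9), against 83.75 and 83.93 CPM in Müller-like control cells, where the Cntn1 interval (76.45 to 91.94) overlapped that of astrocyte-like cells. Scn7a stood at 44.93 CPM in fibroblast-like control cells (41.09 to 49.04), overlapping its Müller-like interval. Scn7a is thus not confined to glia in these cultures.

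Astrocyte-like cells (196 in the double combination and 276 in the control) had lower values too. A2m was at 29.60 CPM in the double combination and 173.7 CPM in the control, and Hopx at 54.46 and 170.8 CPM, log2 ratios of -2.37 and -1.56. The A2m level of the double combination overlapped that of its microglia-like cells, 10.37 CPM (2.138 to 30.29). All 8 ratios were below 0 and 6 were 2-fold, against 2.03% of all genes in these cells, with Chl1 at -0.54 and Cntn1 at -0.58. Adam23 and Scn7a rested there on 1 and 2 UMIs in the double combination. Crym, at 18.94 and 75.50 CPM, was near its level in microglia-like cells, 17.28 CPM in the double combination and 46.62 CPM in the control. These astrocyte-like values of Crym are therefore read as background. Pericyte-like cells (190 of the double combination and 386 of the control), which are not glia, had lower values as well. All 8 ratios were below 0 there and 5 were 2-fold, against 1.56% of all genes, with a median of -1.43. This was not particular to the double combination. With let-7 antagomiR against the control the pericyte-like median was -1.52, and 6 of 8 were 2-fold lower, against 2.04% of all genes. The double combination against let-7 antagomiR had a median of 0.007 there, with 4 of 8 below 0. A2m was at 18.42 CPM in the double combination and 90.15 CPM in the control, and Crym at 19.65 and 118.0 CPM. The 2 control values were above the microglia-like control levels of 29.78 and 46.62 CPM. Those of the double combination were near its own microglia-like levels, 10.37 and 17.28 CPM. The other 6 were below 20 CPM in both libraries. In fibroblast-like cells (773 of the double combination and 2191 of the control) none of the 8 was 2-fold lower or higher, where 0.225% and 0.296% of all genes were. Scn7a, the one well detected there, was at 34.46 CPM in the double combination and 44.93 CPM in the control, a ratio of 0.767 (0.613 to 0.952), against 0.289 (0.223 to 0.371) in Müller-like cells.

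**Figure D5:**
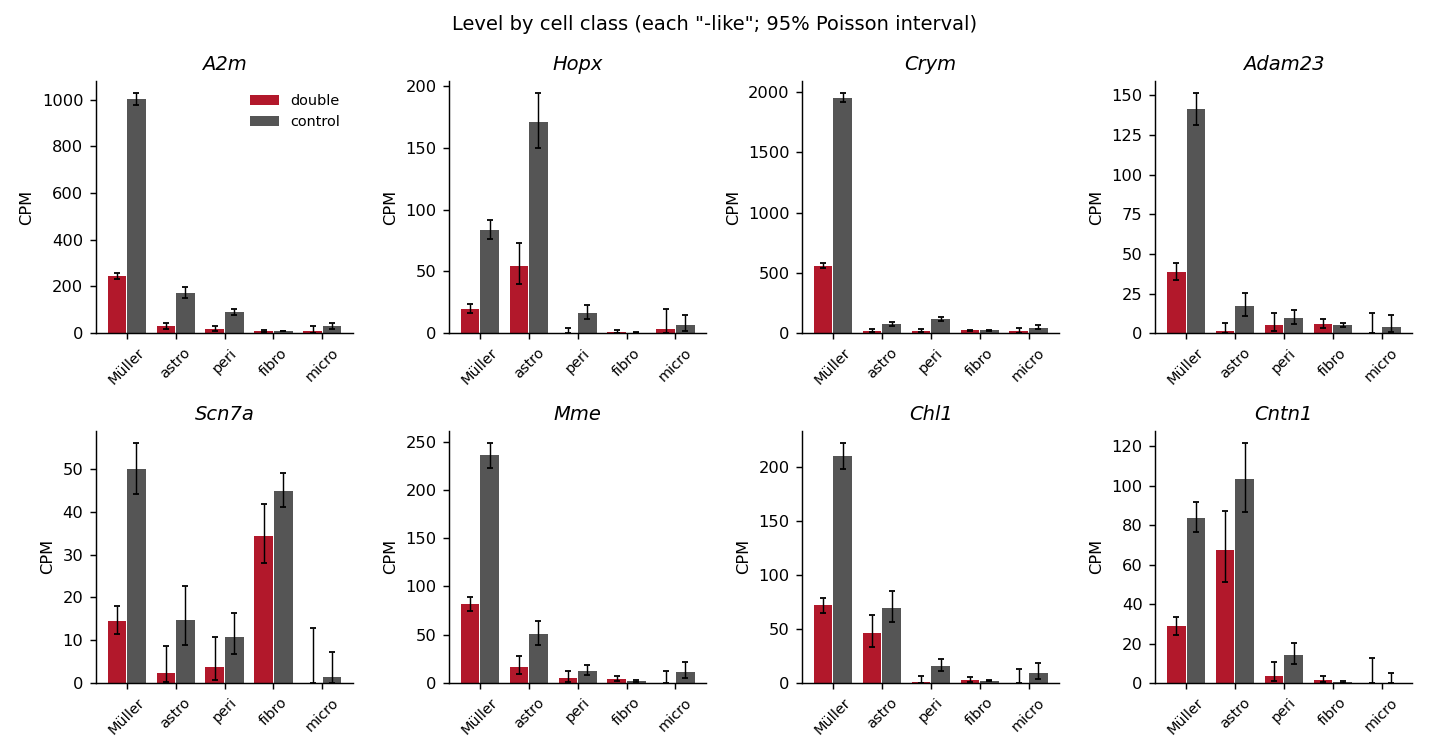
Levels (CPM, 95% Poisson intervals) of the 8 genes in the double combination and the control by cell class: Müller-, astrocyte-, pericyte-, fibroblast- and microglia-like cells. Hopx and Cntn1 are also present in astrocyte-like cells and Scn7a in fibroblast-like cells, where it stands at 34.46 and 44.93 CPM.

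Across the 6 libraries the 8 genes varied together only in part. Of their 28 pairs, 27 had a Pearson r above 0 for log2(CPM + 5), with a median of 0.79; these points share libraries and the double combination on which the genes were chosen, and are a description. A2m with Hopx (0.99) and Crym with Adam23 (0.98) were alike, while Mme with Cntn1 had the only negative r, -0.37. The 5 other genes most like the mean of the 8 were Slc24a3 (r = 0.999), Ndufa1 (0.994), Pcdh9 (0.992), Tmem159 (0.992) and Ndufa2 (0.982), over 6 libraries. Their spans differed: Ndufa2 was at 510.6 CPM in the double combination and 681.2 CPM in the control, and Pcdh9 at 22.71 and 66.49 CPM.

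Genes related to the 8 by family or pathway were mostly not lower to the same degree. The 8 were chosen for low levels in the double combination, so nothing is read from that contrast. Of the 13 measured immunoglobulin-family adhesion genes and partners, 4 were at least 1.5 times lower in the double combination than in the control and none higher, against 4.94% and 3.18% of all genes. These were Cadm2 (-1.17), Alcam (-1.10), Nfasc (-0.98) and Nptn (-0.83), while Ncam1, at -0.01, and Lsamp, at 0.24, were not. Of 6 ADAM and LGI genes, 1 was lower (Adam10, a protease that sheds membrane proteins, -0.84), and the other 5 ran up to -0.02 (Adam9), with Adam22 at -0.16. None of 4 membrane peptidases passed 1.5 times, from -0.25 (Ece1) to -0.19 (Bace2). Of 4 sodium channel and pump genes, Atp1b2, a glial sodium pump subunit, was lower at -1.03, and Atp1b3 was at 0.06. Of 8 thyroid hormone genes, Dio2, which activates thyroid hormone (-0.74), and the receptor Thra (-0.62) were lower, and the receptor Thrb (0.68) and Thrsp (1.35) higher. Dio2 was below 20 CPM in both libraries, at 4.93 CPM in the double combination and 11.63 CPM in the control. Thrsp was also high with each single RNA, at 1.26 with let-7 antagomiR and 1.32 with the miR-25 mimic.

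The general Müller glia markers differed less between these libraries than the 8, which were chosen for this difference. Of 22, 7 were at least 1.5 times lower and 1 higher in the double combination than in the control, with a median of -0.40. Of all genes, 4.94% were lower and 3.18% higher by this measure. Rax, an eye-field transcription factor, was lowest at -1.10, Rlbp1, a retinoid carrier of the visual cycle, was at -0.71, and Kcnj10, a potassium channel, at -0.74. Glul, glutamine synthetase, was at 0.30, Vim at 0.03 and Car2, a carbonic anhydrase, highest at 0.85. Of 16 reactive gliosis genes, 7 were lower and 1 higher, against the same shares of all genes. Their median was -0.50, with C3 lowest at -1.30 and the chemokine Ccl2 highest at 1.79. The spread of both lists thus reached from below -1 to above 0.8. The 8 genes all lay below -1.3, but their choice fixes that, and nothing is read from it.

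Sites for the added miRNAs were looked up in the annotated 3′ UTRs of the 8 genes (GENCODE vM21, GRCm38), read along the transcript. The miR-25 7-mer GTGCAAT was in 4 of 8, against 9.11% of the 6990 measured genes with a 3′ UTR and 17.1% of the 2464 whose 3′ UTR has at least 2000 bases. The 4 genes with a site have 3′ UTRs of 2073 to 3703 bases. Of the 4 without it, Mme has the longest of all 8, 5698 bases, while Hopx has 751, Crym 254 and A2m 119. The let-7 7-mer CTACCTC was in 0 of 8, against 10.2% of all and 18.9% of the long ones; neither motif overlaps the other. The sites are shown with the 15 bases before and the base after the match, which is in capitals; an A after it, as in the first Adam23 site, makes an 8-mer, found in 3.48% of the measured genes.
Adam23, first site, chr1:63592950-63592972, plus strand: agggagtagcaacaaGTGCAATa
Adam23, second site, chr1:63595313-63595335, plus strand: acggacatgagggtaGTGCAATc
Scn7a, chr2:66675082-66675104, minus strand: agataattccttaaaGTGCAATt
Chl1, chr6:103731812-103731834, plus strand: gtggcagactctgacGTGCAATg
Cntn1, chr15:92340939-92340961, plus strand: ctggctcctggagcaGTGCAATg
With miR-25 mimic, the 4 genes with a site had log2 ratios to the control of -0.64 (Adam23), -0.72 (Scn7a), -0.80 (Chl1) and -0.72 (Cntn1). The 4 without one had -0.76 (A2m), -0.85 (Hopx), -0.71 (Crym) and -0.68 (Mme). The part of the sites was not tested, and the 8 were chosen for low levels in a combination that holds the mimic. The ranges of the genes with and without the 7-mer overlapped. A2m, whose 3′ UTR has 119 bases, was among the lower ones with both single RNAs. The members lie on chromosomes 1 (Adam23), 2 (Scn7a), 3 (Mme), 5 (Hopx), 6 (A2m and Chl1), 7 (Crym) and 15 (Cntn1), so most are not neighbours, and A2m (6:121635376-121679227) and Chl1 (6:103510586-103750211) are apart on theirs.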

How the data were processed

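The deposited files hold unnormalized UMI counts for each cell of 6 libraries (10x Genomics V2, per the labels). The submitters' processing notes list Cell Ranger 2, Seurat 2 and mm10; no other step is stated. Barcodes below 500 genes or above 10% mitochondrial UMIs were dropped, as were Scrublet doublets per library. Scrublet marked 0.111% of control cells, 0.193% with the miR-25 mimic and 0.147% in the triple-labelled library, so doublets were in effect not removed there. Pairs of libraries shared 9 to 33 barcodes. Cells were clustered with scanpy (2000 variable genes, 30 components, Leiden resolution 0.6), and clusters were named from marker lists; 4 were Müller-like, and 1 cluster of 355 cells with Müller and fibroblast markers was left unnamed. UMIs of Müller-like cells were summed per library, and log2 ratios taken of CPM + 5. Intervals are 95% Poisson, Clopper-Pearson or conditional ratio intervals and cover counting error only. The counting and ratio steps were tested on simulated data. All 8 genes are described whatever their values; of each list the count past 1.5 times and its highest and lowest genes are given, with further genes chosen after their values were seen. The genes, lists and comparisons were chosen with earlier results of these data known. Sites of miR-124 were not analysed here. The result of 1 related gene list is not reported here. Alternatives are in the closing section.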

Additional observations from a re-analysis of the deposited data

Results flagged for a closer look

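Values with the same comparison in opposite directions in Müller-like cells and in another class, each with a counting interval apart from 1, were looked for in all classes. There were 22; a floor of 20 CPM in both libraries, set after these were seen because many rested on few UMIs, left 8. With 1 library per treatment none of these differences between classes was tested, and the log2 ratios are of CPM + 5.

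In astrocyte-like cells, Hopx was at 0.665 in the miR-124-labelled library against the control (-0.698 in Müller-like cells) and at 0.667 in the triple-labelled library against the control (-0.245). It stood at 273.8 and 274.1 CPM in those libraries and 170.8 CPM in the control. Crym was at 1.102 in the miR-124-labelled library (-0.126 in Müller-like cells), with 167.9 CPM against 75.50 CPM in the control. Its microglia-like levels were 16.86 CPM in the miR-124-labelled library and 46.62 CPM in the control. The control value is thus near background (61.63 to 91.57 CPM against 32.65 to 64.54 CPM), and the size of this ratio is uncertain. The astrocyte-like value of the miR-124-labelled library was far above its microglia-like level. In the triple-labelled library astrocyte-like Crym was at 245.5 CPM, a log2 ratio of 1.638 to the control. Chl1 was at 0.622 in the triple-labelled library (-0.505), with 109.9 CPM against 69.64 CPM in the control.

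In fibroblast-like cells, Crym was at 0.717 with the miR-25 mimic (-0.710 in Müller-like cells) and 0.466 in the miR-124-labelled library (-0.126). Its levels were 43.08, 35.41 and 24.26 CPM with the miR-25 mimic, in the miR-124-labelled library and in the control, while Müller-like cells made up 60.5%, 37.4% and 29.9% of the cells. Scn7a was at -0.56 in the triple-labelled library against the double combination (0.831 in Müller-like cells), with 21.77 and 34.46 CPM. In neuron- or progenitor-like cells, Cntn1 was at 0.885 in the double combination against miR-25 mimic (-0.683 in Müller-like cells), from 42 and 28 UMIs.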

How the results depend on the processing

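The median log2 ratio of the 8 genes in the double combination against the control was -1.36 with 20 CPM added and -1.39 with the control's mix of clusters. It was -0.81 over all kept cells and -0.89 over all barcodes. The ratios ran from -1.05 to -0.26 over all kept cells and from -1.03 to -0.41 over all barcodes. For let-7 antagomiR against the control the median was 0.41 over all kept cells, 0.33 over all barcodes and -0.047 with a 5% mitochondrial limit; for miR-25 mimic it was 0.29, 0.15 and -0.51. For the miR-124-labelled library it was -0.24 over all kept cells and -0.26 over all barcodes. The library labelled triple combination against the double combination gave 1.33 with 20 CPM added, 1.34 over all barcodes, 1.22 with the control's mix and 2.10 with the 5% limit. With the 5% limit 4 of 8 were below 0 with let-7 antagomiR and 7 of 8 with the miR-25 mimic. The cause of these was not tested; the limit left 256 Müller-like cells in the double combination and 133 in the control. Of 704 ratios of single genes under the alternatives, 501 stayed within the counting interval of the reported one and 203 moved past it. All 8 were below 0 in the double combination against the control under each alternative run. At least 50 CPM instead of 20 CPM gave 13, 127, 186 and 335 genes at least 2-fold higher with the miR-25 mimic, in the miR-124-labelled library and in that labelled triple combination against the control, and in the last against the double combination, where 20, 196, 286 and 519 were reported; without a level filter 5 genes in place of 3 were lower with the miR-25 mimic. No paired analysis was possible because each treatment had 1 library. Depth limits Scn7a and Hopx most, with 82 and 113 UMIs in the double combination.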
